A study of Homo sapiens with 6 samples.

Results

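The genes described here encode the potassium channels and their accessory subunits, and KCNQ5 is treated first because its level differed most between the groups over all libraries. They were taken as every protein-coding gene in the count tables whose symbol begins with KCN. The rule gave 95 genes of the 19488 protein-coding genes and 63677 identifiers listed. Of these 95 genes, 51 were detected, meaning that they had 10 or more counts summed over all libraries, 21 had between 1 and 9 counts, and 23 had 0. The rule used names only and no measured value.

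SW480 is an established line from a human colorectal adenocarcinoma, and its polyadenylated RNA was sequenced to ask which transcripts differ when POU5F1B is expressed. POU5F1B is a retrogene copy of the pluripotency gene POU5F1 (OCT4). There were 3 libraries from cells carrying a GFP vector, the control, and 3 from cells carrying a POU5F1B vector. In both groups the transgene was delivered by a lentiviral vector, stood under a promoter that responds to doxycycline, and was induced with 1 µg/mL doxycycline for 72 h, so that the viral vector and the drug were shared by controls and overexpressing cells. Transduced cells were selected with puromycin, no line without a vector was among the samples, and no source used here says whether replicates came from separate transductions or cultures, so that the p-values measure only the spread between these libraries.

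Potassium channels let potassium ions leave or enter the cell down their gradient and thereby set the membrane potential. Voltage-gated pore subunits open on depolarisation, inward rectifiers (KCNJ) hold the resting potential, tandem-pore channels (KCNK) carry a background leak, and the KCNM and KCNN channels open when calcium rises in the cell. In colon epithelium, potassium exit through basolateral channels such as KCNQ1 with its partner KCNE3, and KCNN4, provides the driving force for chloride secretion, while apical KCNMA1 secretes potassium.

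The libraries held between 10767947 and 12787637 counts, of which between 3138 and 4454 fell in the 95 channel genes. Levels are given as CPM, counts per 1000000 counts of the TMM-scaled depth of a library. Before TMM scaling, 3 counts correspond to between 0.235 and 0.279 counts per 1000000. POU5F1B had 6, 5 and 1 counts in GFP replicates 1, 2 and 3 and 15027, 11393 and 1458 in POU5F1B replicates 1, 2 and 3, which fits the labels, with the lowest level of the transgene in replicate 3. GFP replicate 3 stood apart from the other GFP libraries, with a coefficient of variation of 44.3% and 40.9% to them, whereas replicates 1 and 2 lay 8.03% apart in the GFP group and 9.84% apart in the POU5F1B group. POU5F1B replicate 3 lay at 21.1% and 24.1% from its own group. Epithelial markers summed to between 6054 and 8968 CPM with GFP and between 7400 and 8477 CPM with POU5F1B, mostly from KRT8 and KRT18. Within this list CDH1, which encodes E-cadherin, had 33.6, 30.1 and 72.6 CPM with GFP and 164, 158 and 98.1 CPM with POU5F1B without overlap (1.71 ± 0.36 on the log2 scale, SE, limma voom adjusted p = 0.207). EPCAM had 86.6, 89.2 and 518 CPM with GFP and 320, 330 and 252 CPM with POU5F1B (log2 fold change 0.92 ± 0.65, SE), and both rose with replicates 1 and 2 only (1.87 for EPCAM and 2.33 for CDH1, limma voom adjusted p = 1.24e-08 and 1.81e-08). CDX2 had a lower mean in POU5F1B cells, with 27.7, 19.5 and 33.1 CPM against 16.3, 14.6 and 37 CPM. Its groups overlapped (log2 fold change -0.32 ± 0.38, SE). With replicates 1 and 2 only, CDX2 was lower (-0.58, limma voom adjusted p = 0.0333). VIL1 also overlapped (0.51 ± 0.97, SE), and was higher with replicates 1 and 2 only (1.16). The part of these markers in the channel values was not tested. The markers CDX1, GPA33, LGALS4 and KRT20 had few or no counts.

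Within the KCN genes, KCNQ5 (ENSG00000185760; GRCh37 chromosome 6, 73331520 to 73908576, plus strand) had the largest log2 fold change between the groups over all libraries, while with replicates 1 and 2 only KCNJ8 was lower by slightly more. KCNQ5 encodes a voltage-gated pore subunit of the slowly activating M-current, which restrains repetitive firing in neurons and is also carried by smooth muscle. The GFP libraries had 79, 95 and 131 counts of KCNQ5 for replicates 1, 2 and 3, and the POU5F1B libraries had 1, 1 and 8. On the CPM scale these were 6.64, 7.22 and 11.4 in GFP cells and 0.0785, 0.0925 and 0.665 in POU5F1B cells, with means of 8.41 ± 2.58 and 0.278 ± 0.334 (SD, n = 3). Every GFP library thus lay above every POU5F1B library, and the lowest GFP value was 9.99 times the highest POU5F1B value. The ratio of the group means was 30.2. The 1 count in each of POU5F1B replicates 1 and 2 lies under the floor of 3 counts used here, so the size of the fall is poorly determined. The log2 fold change of POU5F1B over GFP was -5.18 ± 0.66 (SE; 95% interval -6.74 to -3.62) in limma voom, the most negative of all 14286 genes tested and ranked between 1 and 3 by fall in every alternative that tested it. Its unadjusted p was 0.000116, which ranked 12 among those genes, and the Benjamini-Hochberg adjusted p was 0.138, so that KCNQ5 did not pass the threshold taken from the study's methods, a fold above 2 with an adjusted p under 0.05.

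KCNQ5 passed the threshold under some settings and not under others, always with the lower value in POU5F1B cells. With replicates 1 and 2 only, the log2 fold change was -5.78 (limma voom adjusted p = 9.53e-06). Weighting the libraries by quality, where GFP replicate 3 received 0.111, it was -5.52 (adjusted p = 0.000296), and without GFP replicate 3 it was -4.96 (adjusted p = 0.00557). DESeq2 gave -4.90 (adjusted p = 1.02e-09) and the quasi-likelihood test of edgeR -4.86 (adjusted p = 0.193). Over all 15 alternatives that tested it, the value ran from -6.00 to -4.68 and the adjusted p from 1.02e-09 to 0.927, and 4 of them passed the threshold. An antisense transcript that overlaps an exon of KCNQ5, KCNQ5-AS1, had 0 counts in every library.

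As examples of the sequence in front of lower and higher channels, the 250 bases before KCNQ5, KCNJ8 and KCNS3 are given from RefSeq (GRCh38.p14). The octamer ATGCAAAT was looked for because POU5F1, from which POU5F1B descends, binds it in DNA. For POU5F1B itself, the study reported a mainly cytoplasmic protein enriched in membranes. Its chromatin immunoprecipitation did not show significant recruitment of POU5F1B to the genome. KCNQ5 and KCNJ8 had the most negative and KCNS3 the most positive log2 fold changes among the channels over all libraries. CG dinucleotides, the sites of DNA methylation, are in capitals. The KCNQ5 window is chr6:72621814-72622063 on the plus strand, that of KCNJ8 is chr12:21774707-21774956 on the minus strand, and KCNS3 has a pair of listed starts, chr2:17877597-17877846 and chr2:17878417-17878666, both on the plus strand.
KCNQ5: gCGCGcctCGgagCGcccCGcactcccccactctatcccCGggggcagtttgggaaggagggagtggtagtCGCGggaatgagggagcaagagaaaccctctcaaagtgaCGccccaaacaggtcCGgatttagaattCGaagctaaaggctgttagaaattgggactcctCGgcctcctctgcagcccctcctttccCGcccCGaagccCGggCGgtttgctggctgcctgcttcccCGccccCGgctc
KCNJ8: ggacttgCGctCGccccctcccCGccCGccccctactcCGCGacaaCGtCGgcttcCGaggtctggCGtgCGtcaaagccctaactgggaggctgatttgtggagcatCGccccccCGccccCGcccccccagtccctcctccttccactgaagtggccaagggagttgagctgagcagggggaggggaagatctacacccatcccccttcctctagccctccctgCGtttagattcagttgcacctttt
KCNS3, upstream start: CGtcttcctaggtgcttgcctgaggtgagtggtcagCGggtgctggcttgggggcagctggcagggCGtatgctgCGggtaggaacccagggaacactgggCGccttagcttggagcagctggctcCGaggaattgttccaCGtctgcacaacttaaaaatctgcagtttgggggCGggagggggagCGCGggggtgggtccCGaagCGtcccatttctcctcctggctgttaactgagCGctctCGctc
KCNS3, downstream start: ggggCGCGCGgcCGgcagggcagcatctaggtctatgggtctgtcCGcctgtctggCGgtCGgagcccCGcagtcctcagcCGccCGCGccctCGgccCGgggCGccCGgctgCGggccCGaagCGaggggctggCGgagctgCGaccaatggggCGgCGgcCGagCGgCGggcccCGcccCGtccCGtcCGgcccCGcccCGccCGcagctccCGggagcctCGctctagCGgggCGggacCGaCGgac
These windows held 18, 15, 14 and 38 CG dinucleotides respectively. The median was 11 over the 35116 promoters listed and 14 over the 109 promoters of channel genes. Of all promoters, 36.8% held at least as many as KCNQ5. None of these windows contained the octamer on either strand. Among the 71 channel genes with an entry, which had 109 promoters, the octamer stood in 3 (2.75%), against 1.63% of all promoters. The GC box GGGCGG, read on both strands, was found 3 times before KCNQ5, 4 times before KCNJ8, and 1 and 6 times before the KCNS3 starts. It occurred at least once in 48.6% of the channel promoters and in 42.6% of all promoters. The TATA box TATAAA stood in 8.26% of channel promoters against 10.7% of all, and the E-box CACGTG in 6.42% against 6.34%. These matches describe letters only.

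Among the channels as a whole, levels were low. To compare genes, counts were divided by the length of the canonical transcript and expressed as TPM, which sums to 1000000 in every library. The highest level was that of KCNN4, the intermediate-conductance calcium-activated channel, at 38.6 ± 19.2 TPM (SD over the 6 libraries). Next came KCNAB2, a cytoplasmic beta subunit of Kv1 channels, at 13.5 ± 7.44 TPM, and KCNJ5, a G protein-gated inward rectifier, at 11.1 ± 2.23 TPM. KCNMA1, the large-conductance calcium-activated channel, followed at 10.4 ± 2.14 TPM and KCNK1, a tandem-pore channel, at 10.0 ± 2.82 TPM. KCNJ12, a strong inward rectifier, had 8.87 ± 3.02 TPM, KCNE3 had 8.56 ± 1.12 TPM and KCNS3 had 8.28 ± 6.79 TPM. From KCNAB2 downward, neighbours in this order differed by less than the larger of their SDs. With the length of all annotated exons in place of the canonical transcript, 6 of these 8 genes were again among the 8 highest, while KCNAB2 moved from rank 2 to 12 and KCNMA1 from rank 4 to 19, so the place of both depends on the length used. The reads of KCNJ12 are uncertain, since it has a nearly identical paralog, KCNJ18, and only uniquely mapped reads were counted.

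**Figure D1:**
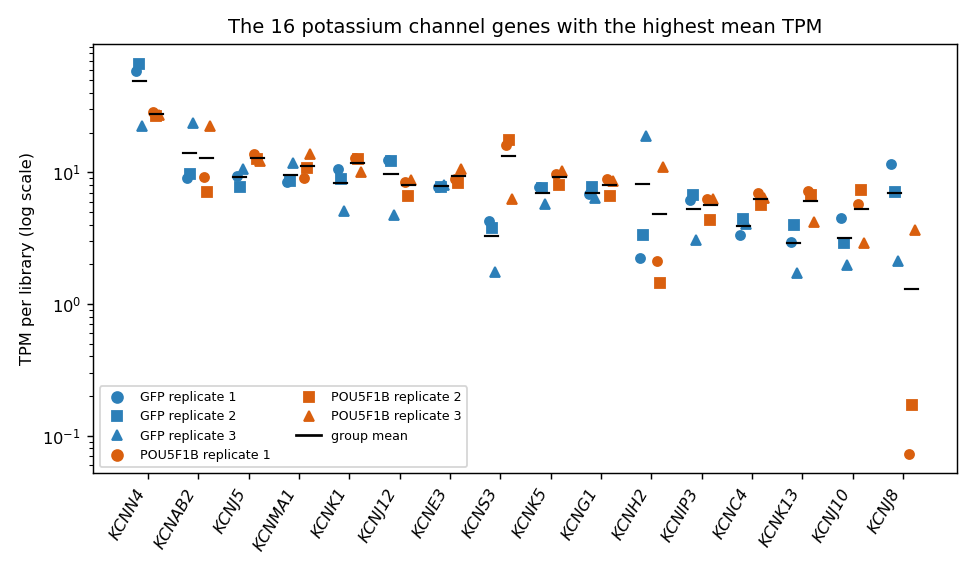
TPM per library (log axis) for the 16 channel genes with the highest mean level per transcript length, with blue points for GFP and orange points for POU5F1B libraries, a marker shape for each replicate and a black bar for the group mean. KCNN4 has the highest mean, with values between 22.5 and 67.1 TPM, though in GFP replicate 3 KCNAB2 (23.6 TPM) lies above it. KCNS3 has its orange points, from 6.26 to 17.5 TPM, above its blue points, from 1.76 to 4.23 TPM.

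In the KCNQ family, KCNQ1 had 1.46 ± 0.579 TPM over the 6 libraries and KCNQ5 1.41 ± 1.51 (SD). These pooled means hide opposite orders in the groups. With GFP, KCNQ5 had 2.20, 2.44 and 3.54 TPM and KCNQ1 1.76, 1.72 and 0.533 TPM. With POU5F1B, KCNQ5 had 0.0259, 0.0304 and 0.222 TPM and KCNQ1 2.15, 1.56 and 1.04 TPM. KCNQ3, another neuronal M-channel subunit, had 4 counts in GFP replicate 3 and 0 in the other libraries. KCNQ1, the epithelial and cardiac member, had 2.69, 2.58 and 0.868 CPM with GFP and 3.30, 2.40 and 1.58 CPM with POU5F1B, so the groups overlapped, with both replicate 3 libraries lowest. Its log2 fold change was 0.33 ± 0.51 (SE; 95% interval -0.89 to 1.55). Exons of KCNQ1 overlap KCNQ1OT1 on the opposite strand, which had between 20 and 185 counts per library, and the strand setting of the counting was not stated. 

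Of the 51 detected channels, 33 passed the filter on low counts (filterByExpr) and were tested, and 18 did not. None of the 33 passed the threshold in limma voom, where 0% of all genes tested did, and none passed with the quasi-likelihood test of edgeR. At an unadjusted p under 0.05 there were 8 of 33 (24.2%), 4 higher and 4 lower in POU5F1B cells, against 11.9% of all genes, 6.07% higher and 5.82% lower. The groups did not overlap in CPM for 8 of 33 channels (24.2%), against 19.4% of all genes. The median log2 fold change of the 33 was 0.12, against -0.02 over all genes, with 19 higher and 14 lower. The median size of the log2 fold change regardless of sign was 0.47, against 0.23 over all genes. The channels, whose levels were low, were not compared with genes of similar level, so this is not read as particular to them. A channel that was expressed in a single group could enter the 33 through that group. KCNQ5, KCNC1 and KCNJ8, which were among the 4 lower channels, had under 10 counts in POU5F1B replicates 1 and 2. They were not tested where 10 counts in every sample were asked for. In that setting 5 of 27 channels had an unadjusted limma voom p under 0.05, 4 higher and 1 lower, against 12% of all genes. The split into 4 higher and 4 lower thus depended on the filter.

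With replicates 1 and 2 only, 9 of the 33 channels (27.3%) passed the threshold in limma voom, against 8.36% of all genes. KCNS3 and KCNK13 were among the 3 that rose in that setting, where 3.21% of all genes rose. KCNQ5, KCNC1, KCND3, KCNJ8, KCNN4 and KCNMB4 were the 6 that fell, where 5.15% of all genes fell. Sample quality weights called 8 channels, the same genes without KCNK13 (7.54% of all genes), and DESeq2 called KCNQ5, KCND3 and KCNS3 (1.62% of all genes). Values below are therefore given per library.

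**Figure D2:**
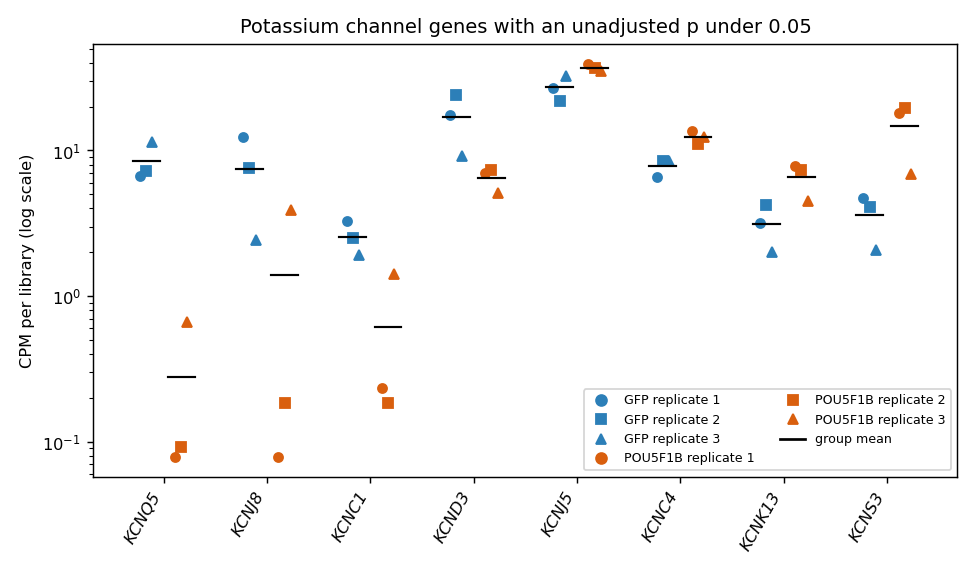
CPM per library (log axis) for the 8 channel genes with an unadjusted limma voom p under 0.05, ordered by log2 fold change, with GFP in blue, POU5F1B in orange, a marker shape per replicate and a black bar at the group mean. KCNQ5, KCNC1 and KCND3 have all orange points below all blue points, KCNS3, KCNC4, KCNK13 and KCNJ5 have them above, and KCNJ8 overlaps, with its replicate 3 points, at 2.43 CPM for GFP and 3.90 CPM for POU5F1B, in the reverse order.

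The voltage-gated pore subunits numbered 40, of which 21 were detected and 14 tested, 7 with a higher and 7 with a lower value in POU5F1B cells, and 5 had an unadjusted p under 0.05. Besides KCNQ5, 2 of these were lower. KCNC1, a Kv3 subunit of fast-spiking neurons, had 3.28, 2.51 and 1.91 CPM with GFP and 0.235, 0.185 and 1.41 CPM with POU5F1B. The groups did not overlap, but POU5F1B replicate 3 lay close to GFP replicate 3, and the counts behind the POU5F1B values were 3, 2 and 17. The log2 fold change of KCNC1 was -2.49 ± 0.66 (SE; limma voom adjusted p = 0.260), and -3.53 with replicates 1 and 2 only (adjusted p = 0.00035). KCND3, a Kv4 subunit of the transient outward current, had 17.7, 23.9 and 9.12 CPM with GFP and 6.98, 7.40 and 5.07 CPM with POU5F1B. All POU5F1B libraries again lay below all GFP libraries. Its log2 fold change was -1.31 ± 0.41 (SE; limma voom adjusted p = 0.315), and -1.53 with replicates 1 and 2 only (adjusted p = 0.000168). Exons of KCND3 overlap DDX20 on the opposite strand, which had between 495 and 636 counts per library.

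KCNS3 and KCNC4 were the voltage-gated subunits with higher values at an unadjusted p under 0.05. KCNS3 is an electrically silent subunit that forms no channel alone and modifies Kv2 channels. It had 4.71, 4.10 and 2.08 CPM with GFP and 18.0, 19.6 and 6.89 CPM with POU5F1B, means of 3.63 ± 1.37 and 14.8 ± 6.91 (SD, n = 3). The groups did not overlap, and the replicate 3 library was the lowest of each. The log2 fold change of KCNS3 was 1.94 ± 0.54 (SE; limma voom adjusted p = 0.278), and 2.07 with replicates 1 and 2 only (adjusted p = 1.61e-05). KCNB2, a Kv2 pore gene, had between 0 and 3 counts per library and was not tested. KCNC4, a Kv3 subunit, had 6.56, 8.44 and 8.51 CPM with GFP and 13.7, 11.1 and 12.5 CPM with POU5F1B, without overlap and with replicate 3 close to the others. Its log2 fold change was 0.67 ± 0.20 (SE; limma voom adjusted p = 0.303), under the fold of 2. KCNC2, also of the Kv3 group, had 0 counts.

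Of the 13 auxiliary subunits of voltage-gated channels, 7 were detected and 4 tested, and none had an unadjusted p under 0.05. KCNE3, the partner of KCNQ1 in colon crypts, had 11.3, 10.9 and 12.4 CPM with GFP and 13.0, 12.1 and 15.4 CPM with POU5F1B. The groups overlapped by a small margin, and the log2 fold change was 0.22 ± 0.18 (SE), with a 95% interval from -0.21 to 0.65. KCNAB2 had 17.8, 18.7 and 49.7 CPM with GFP and 18.4, 14.1 and 44.1 CPM with POU5F1B. It was high in both replicate 3 libraries, and the groups overlapped (log2 fold change -0.16 ± 0.54, SE). Exons of KCNAB2 overlap NPHP4 on the opposite strand.

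Among the 15 inward rectifiers, 11 were detected and 7 tested, and 2 had an unadjusted p under 0.05, 1 in each direction. KCNJ8, the Kir6.1 pore of vascular ATP-sensitive channels, had 148, 99 and 28 counts in GFP cells and 1, 2 and 47 counts in POU5F1B cells, or 12.4, 7.53 and 2.43 against 0.0785, 0.185 and 3.90 CPM. The replicate 3 libraries were in the reverse order of replicates 1 and 2, so the groups overlapped. The log2 fold change was -3.71 ± 1.27 (SE; limma voom adjusted p = 0.346) over all libraries and -5.88 with replicates 1 and 2 only (adjusted p = 6.2e-05). A long non-coding RNA on the opposite strand that overlaps an exon of KCNJ8 had between 18 and 42 counts per library. KCNJ5 had 27.0, 21.8 and 32.6 CPM with GFP and 39.5, 36.7 and 34.9 CPM with POU5F1B. No POU5F1B value lay under a GFP value, and the log2 fold change was 0.47 ± 0.18 (SE; limma voom adjusted p = 0.373). KCNJ12 had a log2 fold change of -0.21 ± 0.37 (SE) with overlapping groups. KCNJ11, the Kir6.2 pore that is the counterpart of KCNJ8, had overlapping groups (log2 fold change 0.02 ± 0.38, SE, 95% interval -0.89 to 0.93).

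The tandem-pore class held 15 genes, of which 6 were detected and 5 tested, 4 of them with a higher value in POU5F1B cells. KCNK13 (THIK-1) had 3.19, 4.26 and 2.0 CPM with GFP and 7.85, 7.31 and 4.49 CPM with POU5F1B. These did not overlap, though POU5F1B replicate 3 lay close to GFP replicate 2. The log2 fold change of KCNK13 was 1.06 ± 0.37 (SE; limma voom adjusted p = 0.350), and 1.01 with replicates 1 and 2 only (adjusted p = 0.00794). KCNK5 (TASK-2), an acid-sensitive leak channel of epithelia, had 13.9, 13.3 and 11.0 CPM with GFP and 17.3, 14.4 and 18.1 CPM with POU5F1B. This gap between the groups was narrow, and the log2 fold change was 0.39 ± 0.19 (SE; limma voom adjusted p = 0.472). KCNK1 had 10.4, 8.59 and 5.30 CPM with GFP and 12.5, 12.4 and 9.72 CPM with POU5F1B, which overlapped, with a log2 fold change of 0.55 ± 0.29 (SE).

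The calcium- and sodium-activated pores numbered 8, with 4 detected and 2 tested, KCNN4 and KCNMA1. KCNN4 had 54.9, 61 and 22.2 CPM with GFP and 26.9, 25.0 and 25.3 CPM with POU5F1B. GFP replicate 3 lay below all POU5F1B libraries, and GFP replicates 1 and 2 above them. The log2 fold change was -0.72 ± 0.40 (SE; limma voom adjusted p = 0.519) over all libraries, -1.18 without GFP replicate 3 (adjusted p = 0.00344) and -1.17 with replicates 1 and 2 only (adjusted p = 2.54e-05). KCNMA1 had 25.1, 24.8 and 37.1 CPM with GFP and 27.1, 32.4 and 40.7 CPM with POU5F1B. Those groups overlapped, with a log2 fold change of 0.21 ± 0.23 (SE; 95% interval -0.34 to 0.77). Of its 4 beta subunit genes, 2 were detected and KCNMB4, the form best known from brain, was tested. KCNMB4 had 6.22, 5.17 and 1.22 CPM with GFP and 1.49, 1.11 and 2.49 CPM with POU5F1B, so that GFP replicate 3 lay among the POU5F1B values. Its log2 fold change was -1.07 ± 0.70 (SE; limma voom adjusted p = 0.586), and -2.10 with replicates 1 and 2 only (adjusted p = 0.00055).

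**Figure D3:**
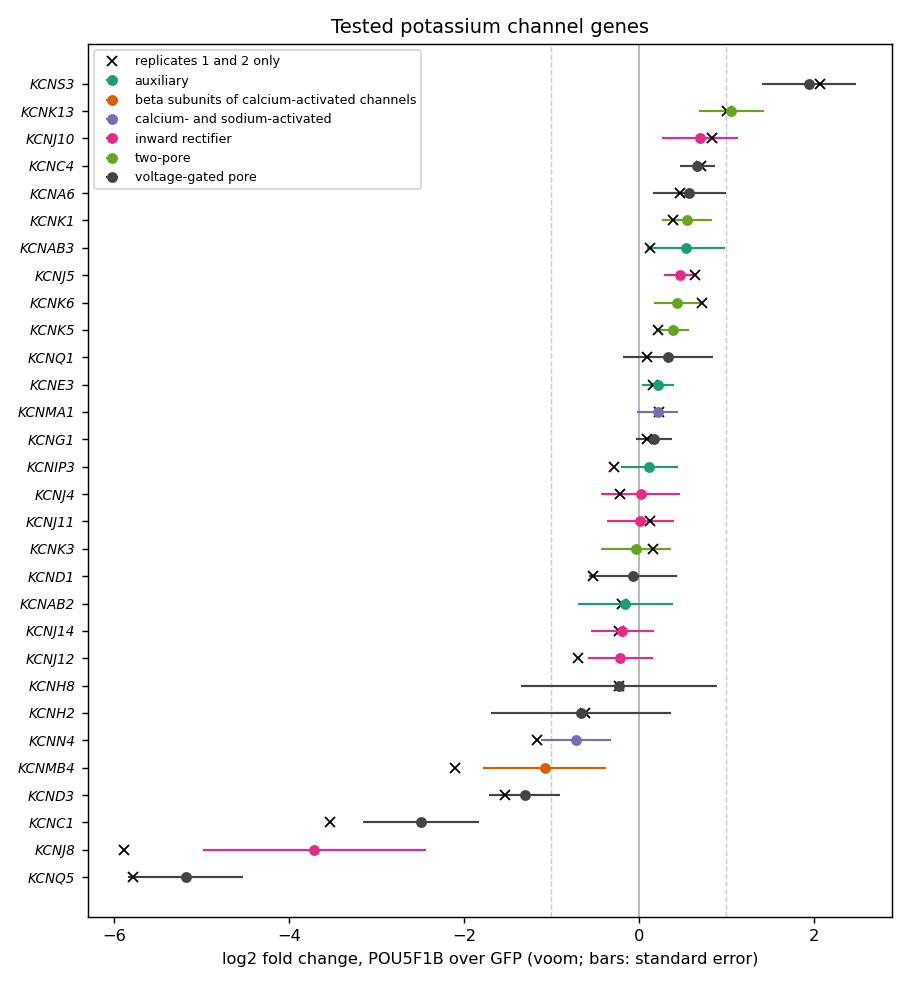
Log2 fold change of POU5F1B over GFP in limma voom for 30 of the 33 tested channel genes, with points coloured by class, bars of 1 SE, and black crosses for the value with replicates 1 and 2 only. KCNQ5 lies lowest at -5.18 and KCNS3 highest at 1.94, and the crosses of KCNJ8 (-5.88) and KCNMB4 (-2.10) lie far to the left of their points.

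The replicate 3 libraries of both groups lay apart from the others in some channels, as in many other genes. In 7 of the 33 tested channels (21.2%) both replicate 3 libraries lay above the other 4 libraries, against 13.8% of all genes, and in 4 (12.1%) both lay below them, against 10.9%, so that nothing particular to the channels is read from these counts. The 7 were KCNAB2, KCNH2, KCNH8, KCNJ11, KCNJ14, KCNK3 and KCNMA1, and the 4 were KCND1, KCNJ4, KCNJ10 and KCNQ1. KCNH2, the hERG channel of cardiac repolarisation, had 4.54, 6.61 and 40.5 CPM with GFP and 4.32, 2.96 and 22.3 CPM with POU5F1B. Its mean over the replicate 3 libraries was 6.82 times that over replicates 1 and 2. The same ratio was 6.34 for KCNH8, a channel of the ELK family, and 2.72 for KCNAB2. Among detected channels that were not tested, KCNA2, a Kv1 subunit, had 4, 7 and 91 counts in GFP cells and 0, 1 and 46 in POU5F1B cells. KCNH4, KCNJ2 and KCNJ3 were also highest in both replicate 3 libraries. KCNJ2, the Kir2.1 pore, had 0, 1 and 28 counts in GFP cells and 0, 1 and 4 counts in POU5F1B cells.

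**Figure D4:**
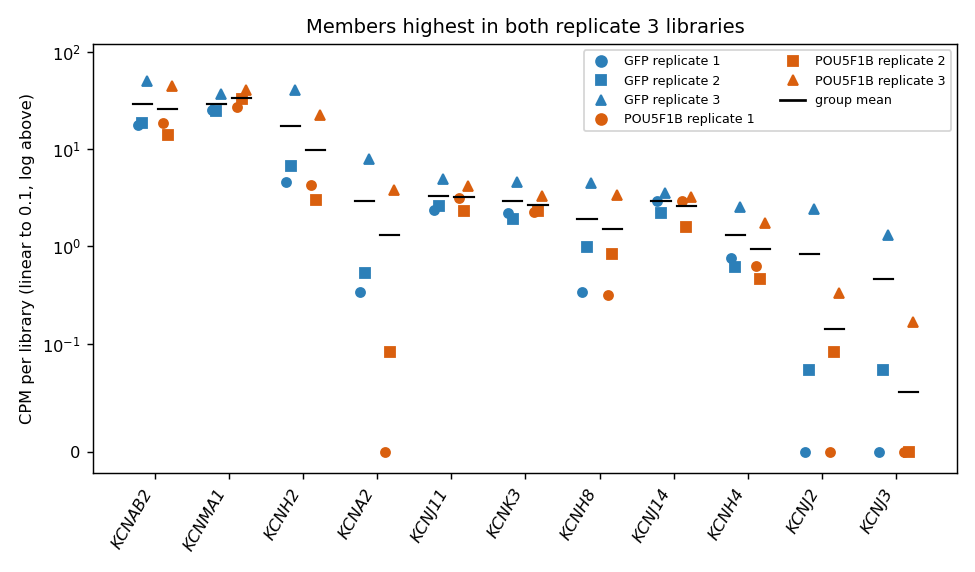
CPM per library (linear to 0.1, logarithmic above) for the detected channel genes whose replicate 3 libraries (triangles) lie above the other 4 libraries, with GFP in blue, POU5F1B in orange and a black bar at the group mean. In KCNH2 the triangles stand at 40.5 and 22.3 CPM over circles and squares between 2.96 and 6.61 CPM.

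The other tested channels had overlapping groups and unadjusted p-values above 0.05. KCNJ10, the Kir4.1 pore, had 11.2, 7.07 and 5.21 CPM with GFP and 14.2, 18.1 and 7.06 CPM with POU5F1B, so that only the replicate 3 library of POU5F1B lay within the GFP range (log2 fold change 0.70 ± 0.43, SE). KCNA6, a Kv1 subunit, had a log2 fold change of 0.58 ± 0.42 (SE), KCNAB3, a Kv1 beta subunit, 0.54 ± 0.44, and KCNK6, a tandem-pore channel, 0.44 ± 0.27. KCNG1, another silent modifier of Kv2 channels, had 0.18 ± 0.21, and KCNIP3, a calcium-binding partner of Kv4 channels, 0.12 ± 0.33. KCND1, the Kv4 gene detected beside KCND3, had -0.07 ± 0.51 (SE; 95% interval -1.27 to 1.14).

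The remaining detected channels that were not tested had few counts. KCNH6 had 9, 16 and 1 counts in GFP cells and 5, 1 and 9 in POU5F1B cells. KCNJ1, the ROMK pore of the renal tubule, had 15, 9 and 1 counts against 2, 4 and 2, and KCNMB3 had 5, 8 and 9 against 25, 6 and 8, so each of these overlapped between groups. Among channels with fewer than 10 counts, KCNS1 had 0 in every GFP library and 5, 2 and 1 in POU5F1B cells, and KCNN1 had 3, 1 and 1 in GFP cells and 0 in every POU5F1B library. At this depth such counts lie at or near the floor of 3 counts, and no difference was read from them. The 23 genes with 0 counts included the Kv1 genes KCNA3, KCNA4, KCNA5 and KCNA10, the Kv4 gene KCND2, the inward rectifiers KCNJ13, KCNJ15 and KCNJ16, and the tandem-pore genes KCNK2, KCNK4, KCNK12, KCNK16, KCNK17 and KCNK18. A count of 0 allows up to 3 counts in a library, or between 0.235 and 0.279 CPM.

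Summed over all 95 genes, channel transcripts made up 336.9, 338.6 and 340.4 CPM in GFP replicates 1, 2 and 3 and 313.8, 290.2 and 352.7 CPM in the POU5F1B libraries. The groups overlapped in this sum. Within it, the tandem-pore class summed to 33.5, 32.8 and 28.4 CPM with GFP and 46.1, 41.9 and 41.6 CPM with POU5F1B, which did not overlap. The voltage-gated pore class summed to 83.8, 95.3 and 114 CPM against 81.9, 75.2 and 92.8 CPM, and the inward rectifiers to 92.1, 75.9 and 67.2 CPM against 84.9, 79.1 and 77.7 CPM, both with overlap.

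Markers of other cell types were read beside these genes, because several of the lower channels are known from neurons and smooth muscle. The lists held no marker chosen for smooth muscle. The 4 neuron markers, none of them at 0 in all libraries, summed to between 18.9 and 155 CPM with GFP and between 3.98 and 31.4 CPM with POU5F1B. TUBB3 had 2.35, 1.60 and 0.695 CPM with GFP and 2.12, 2.03 and 1.83 CPM with POU5F1B, a higher mean in POU5F1B cells with overlapping groups. Most of the sum came from SYT1, which had 6.98, 5.47 and 141 CPM with GFP and 0.942, 0.647 and 18.7 CPM with POU5F1B, and from SNAP25, while RBFOX3, which defines mature neurons, had 1 count or less per library. The 6 fibroblast markers, of which COL3A1 was at 0 in every library, summed to between 27.3 and 171 CPM with GFP and between 13.4 and 22.5 CPM with POU5F1B, mainly from COL1A1 and PDGFRB. COL1A1 had 141, 118 and 16.8 CPM with GFP and 6.75, 5.55 and 9.47 CPM with POU5F1B, without overlap (log2 fold change -3.22 ± 1.09, SE). PDGFRB had overlapping groups (-0.95 ± 0.59, SE). The 3 endothelial markers with an identifier summed to between 1.22 and 6.05 CPM with GFP and between 2.66 and 6.51 CPM with POU5F1B, and the 4 leukocyte markers, with CD68 at 0, to between 0.912 and 1.56 against 1.85 and 4.24 CPM. Their part in the values of KCNQ5, KCNC1 and KCNJ8 was not tested. In RNA from whole cultures, fewer cells that express a gene and less RNA per cell cannot be told apart.

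Other genes of potassium transport were read from a list of 48 sodium pumps, cation-chloride cotransporters, HCN channels, kinases that regulate them and channel partners. Of these, 27 were tested, none passed the threshold in limma voom, and 3 (11.1%) had an unadjusted p under 0.05, 2 higher and 1 lower, near the 11.9% of all genes. The median log2 fold change was -0.02. LRRC55, an auxiliary gamma subunit of KCNMA1 channels, had 2.77, 2.20 and 4.34 CPM with GFP and 24.6, 26.5 and 8.31 CPM with POU5F1B. Those groups did not overlap, and the log2 fold change was 2.55 ± 0.59 (SE; limma voom adjusted p = 0.230). ABCC8, the sulfonylurea receptor that pairs with KCNJ11, had 3.03, 2.81 and 1.04 CPM with GFP and 0.235, 0.185 and 1.66 CPM with POU5F1B. As in KCNJ8, replicate 3 was in the reverse order, and the log2 fold change was -2.16 ± 0.82 (SE; limma voom adjusted p = 0.372). The third was STK39 (SPAK), a kinase of the cotransporters, whose log2 fold change was 0.40 ± 0.14 (SE; limma voom adjusted p = 0.350). With replicates 1 and 2 only, LRRC55 rose (3.34) and ABCC8 fell (-3.56) past the threshold, or 7.41% of the 27 against 8.36% of all genes.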

How the data were processed

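The measurements are RNA-seq read counts per gene in 6 libraries of SW480 cells. The authors deposited whole-number counts per Ensembl gene, not normalized. Per the study's methods and the labels, libraries were made with a stranded poly(A) kit, reads were mapped to hg19 with HISAT2, and uniquely mapped reads were counted with featureCounts over an annotation of genes and transposable elements. The strand setting and annotation release were not given in the sources used here, so genes that overlap on opposite strands, and close paralogs, are uncertain.

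Groups and replicate numbers came from the sample titles. The channel genes, the other gene lists and the naming rule were chosen with earlier results of these data known. Named were the KCNQ genes, tested members with an unadjusted p under 0.05 or with groups that did not overlap, the 8 highest per length, members past the threshold in replicates 1 and 2 only, and KCNE3, KCNN4, KCNMA1 and KCNK5. Any other gene was chosen after its values were seen, and some genes that the rule names are not reported here. A further 25 identifiers whose symbols begin with KCN but are not protein coding were left out. Symbols were found for 87.4% of identifiers.

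Genes were filtered with filterByExpr, which kept 14286, scaled by TMM (edgeR 4.0.16) and tested by limma voom (limma 3.58.1, R 4.3.3), with Benjamini-Hochberg adjustment over all genes tested and the limits of the study's methods. Alternatives were edgeR's quasi-likelihood test, DESeq2 1.42.0, sample quality weights, other scalings and filters, the replicate number as a block, replicates 1 and 2 only, and each library left out. Non-overlap with each library left out, and the length of all exons, were added after seeing the data. Lengths and coordinates are from GENCODE 44 mapped to GRCh37, 1-based. No 2 libraries agreed within counting noise (chi-square per degree of freedom at least 4.21). Intervals are 95% intervals of the fit, and the floor of 3 counts covers counting error only.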

Additional observations from a re-analysis of the deposited data

How the results depend on the processing

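KCNQ5 kept its direction under every alternative that tested it. It passed the threshold with DESeq2 (-4.90), sample quality weights (-5.52), without GFP replicate 3 (-4.96) and with replicates 1 and 2 only (-5.78), and its log2 fold change ran from -6.00 to -4.68 with each library left out. KCNQ5, KCNC1 and KCNJ8 were not tested where 10 counts in every sample were asked for. Counts past the threshold over all genes were 232 with DESeq2, 1077 with quality weights, 4 for genes with at least 1 count, 1194 with replicates 1 and 2 only, and from 0 to 595 with a library left out, 595 without GFP replicate 3 and 5 without POU5F1B replicate 3. For the channels they were 3, 8, 0, 9 and from 0 to 6, the 6 being without GFP replicate 3 and all lower. For the other potassium transport genes they were 2, 2, 0, 2 and from 0 to 2. Channels with an unadjusted p under 0.05 numbered 18 with quality weights (40.1% of all genes) and 16 with replicates 1 and 2 only (40.2%). With 10 counts in every sample they numbered 5 of the 27 tested, 4 higher and 1 lower (12% of all genes). With a library left out they ran from 4 without POU5F1B replicate 1 (5.19%) to 14 without GFP replicate 3 (29.4%). Channels without overlap numbered 22 with replicates 1 and 2 only (66.3% of all genes) and from 8 to 19 with a library left out, 19 without GFP replicate 3 (48.8%) and 14 without POU5F1B replicate 3 (34.6%).

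Directions turned for KCNAB2 (0.031 with quality weights, -0.64 to 0.30 with a library left out), KCNJ12 (-0.63 to 0.012) and KCNQ1 (-0.18 to 0.62). The cause of these shifts was not tested.

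A replicate block let 1 gene and 0 channels pass, and KCNQ5 had -5.08 (limma voom adjusted p = 0.174). The numbers were not taken as pairs, since deviations of same-numbered libraries correlated at 0.242, 0.088 and 0.165, and not every library correlated best with its own number. The replicate 3 libraries of both groups did correlate best with each other. With the block, the SE was smaller for some channels (KCNS3, 0.23 against 0.54) and larger for others (KCNJ8, 1.55 against 1.27). GFP replicate 3 and the low counts of KCNQ5, KCNC1 and KCNJ8 in POU5F1B cells limit precision.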
